A study of Mus musculus with 12 samples.

Results

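The expression change that the p38 inhibitor SB203580 made in myogenic cells given doxycycline to induce a Myog transgene was examined over the 3 arrays labelled SB+Dox and the 3 labelled Dox, which are 6 of the 12 arrays of the study. Every transcript cluster (the probe group that the array reads as 1 transcript) with exactly 1 gene symbol was included, which gave 21789 of 35557 clusters and 19938 genes. All arrays hold total RNA of C2i-Myog cells, which are C2C12 mouse myoblasts stably carrying a Flag-tagged mouse Myog under doxycycline control, and this 1 line is the only model. The cells were grown in 10% FCS and differentiated for 48 h, with the serum changed to 1% horse serum and with 10 µg/mL of insulin and 10 µg/mL of transferrin added. Dox cells received doxycycline at 0.2 µg/mL for the 48 h, and SB+Dox cells received the same doxycycline together with SB203580 at 10 µM. The groups named control (neither agent) and SB (SB203580 at 10 µM without doxycycline) served as the most similar comparison, and SB against control shares no array with SB+Dox against Dox. No group had doxycycline without the transgene, so an effect of doxycycline itself cannot be told apart from that of the transgene. Whether replicates 1 to 3 came from separate cultures is not stated in the labels, and p-values therefore reflect only how these arrays spread, which may be technical.

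Muscle differentiation is driven by the myogenic basic helix-loop-helix factors, among which Myod1 commits the myoblast and Myog acts later, as the cell leaves the cell cycle, builds sarcomeres and fuses into a myotube. The p38 MAP kinases promote this program by phosphorylating MEF2 partners and chromatin-remodelling factors, and they also act on messenger RNA stability and on stress and matrix genes. SB203580 binds the ATP pocket of p38α and p38β and blocks their kinase activity without removing the protein. The comparison asks which expression changes with SB203580 in cells given doxycycline to induce Myog. No group had another p38 inhibitor or loss of p38, so any effect of SB203580 outside p38 cannot be told apart.

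The deposited values are log2 RMA signals, so a difference of 1 is a doubling, and a signal can be compared between arrays for a gene but not between genes. Replicate arrays correlated at 0.993 to 0.995 within Dox and 0.994 to 0.996 within SB+Dox over all clusters tested. Array medians lay between 5.29 and 5.35 in the 6 arrays. The 9 myotube markers examined (among them Acta1, Ckm, Mylpf and Tnnt3) had a mean signal per array of 9.74 to 10.17 in Dox and 9.67 to 10.08 in SB+Dox. Mymk, which drives myoblast fusion, was the 1 of the 9 that passed the test (log2 change -0.63). Its limma adjusted p rose from 0.0317 to as much as 0.132 with 1 array left out. The 7 myoblast markers had a mean of 8.34 to 8.43 in Dox and 8.26 to 8.35 in SB+Dox, and Myod1 and Cdh15 fell and Myf5 rose among them. The fall of Cdh15 did not stay called with each array left out (limma adjusted p up to 0.111). The 11 macrophage and leukocyte markers had a mean of 4.18 to 4.33 in Dox and 4.06 to 4.26 in SB+Dox, and the 9 endothelial markers one of 4.28 to 4.39 and 4.22 to 4.31. The files hold no detection calls, so a low signal was not shown to be above background.

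The transcripts that the labels name were read in both groups. Myog read 10.39, 10.30 and 10.40 in the Dox arrays and 8.10, 8.23 and 8.68 in the SB+Dox arrays. The groups did not overlap, and Myog fell 4.09-fold in SB+Dox (log2 change -2.03, SE 0.25, adjusted p = 8.86e-05). Its mean was 9.91 ± 0.26 in control and 7.70 ± 0.68 in SB (SD, n = 3), so the SB+Dox arrays, labelled as expressing Myog, carried less Myog signal than the control arrays (log2 change -1.58, adjusted p = 0.00162). The effect of doxycycline on the Myog signal did not pass the test, either alone (Dox minus control 0.46, adjusted p = 0.467) or with the inhibitor (SB+Dox minus SB 0.64, adjusted p = 0.157). The files do not say whether the cluster's probes read the transgene as well as the endogenous transcript. The SB+Dox label also speaks of absent p38. SB203580 blocks kinase activity, which transcript levels do not show, so the p38 transcripts cannot check this part of the label. The transcript of Mapk14, which encodes p38α, read 7.10, 7.21 and 7.10 in Dox and 7.63, 7.73 and 7.69 in SB+Dox, a 1.46-fold rise without overlap (adjusted p = 0.00115). Mapk11, Mapk12 and Mapk13, the genes of the other p38 isoforms, had log2 changes of 0.05, 0.16 and -0.08 with adjusted p of 0.828, 0.531 and 0.79, and their groups overlapped. The direction for Mapk11 turned to -0.01 after quantile normalization.

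**Figure D1:**
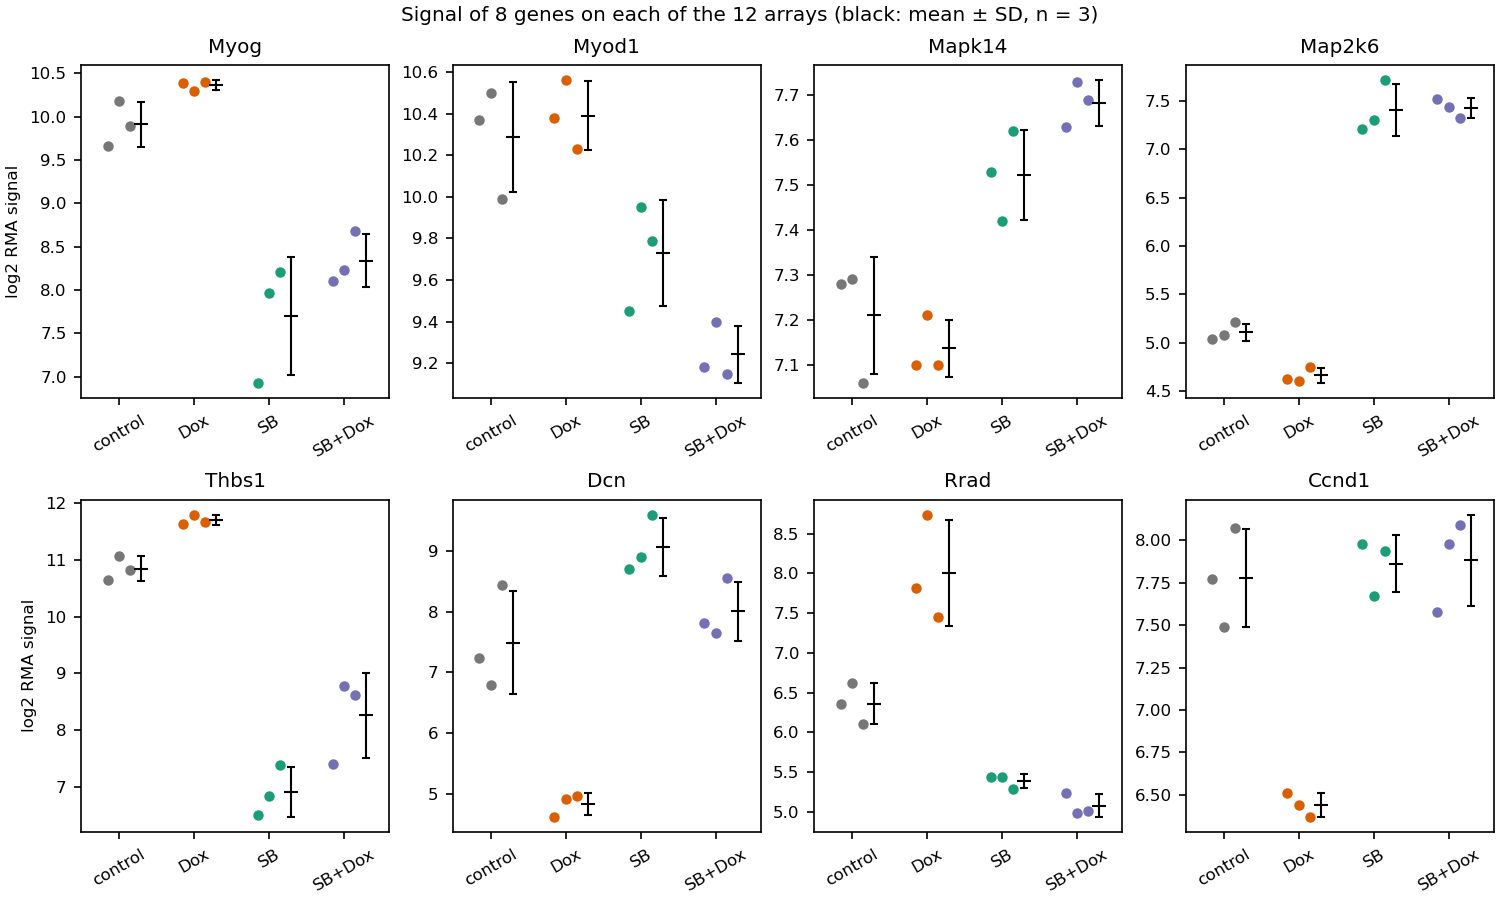
Log2 RMA signal of 8 genes (vertical axes, not starting at 0) on each of the 12 arrays, by group along the horizontal axes. Points are arrays and black marks are the mean ± SD of 3 arrays. Myog, Myod1, Thbs1 and Rrad lie lower in every SB+Dox array than in every Dox array, and Mapk14, Map2k6, Dcn and Ccnd1 lie higher.

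SB203580 changed more clusters upward than downward in the doxycycline-treated cells. With limma and Benjamini-Hochberg adjustment over all 21789 clusters, 2265 clusters (10.4%) were called at an adjusted p under 0.05, and 747 of them (3.43%) were lower and 1518 (6.97%) higher in SB+Dox. A change of at least 1.5-fold was reached by 385 lower and 714 higher calls, and one of at least 2-fold by 142 and 183. The 3 SB+Dox arrays did not overlap the 3 Dox arrays for 2254 of the called clusters, beside 6348 (29.1%) of all clusters. After each of the 12 arrays had been left out in turn, 1318 clusters (6.05%) remained called every time with groups that did not overlap, 414 lower and 904 higher. Genes so called are named robust below. Genes picked as robust calls have separate groups by that choice, so the separation given for them adds no support. Over all clusters the median log2 change was -0.03. Counted with 1 cluster per gene, 3.55% of the 19938 genes were lower and 7.19% higher, and the gene lists below are read against these shares.

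Among the genes that fell furthest, Ctrb1, the precursor of the digestive protease chymotrypsin B, read 10.20, 10.69 and 10.37 in Dox against 5.70, 5.95 and 5.68 in SB+Dox. Its log2 change was -4.64 (SE 0.21, adjusted p = 1.46e-08), and the SB+Dox level was close to the SB mean of 5.85 and below the control mean of 7.98. Anxa8, a calcium- and phospholipid-binding annexin, fell from 8.71, 8.57 and 9.55 to 4.41, 4.43 and 4.18, with a log2 change of -4.60, and the low SB+Dox signal, like the SB mean of 4.41, was not shown to be above background. R3hdml fell by 3.72 on the log2 scale, from 8.54, 9.53 and 8.46 to 4.89, 5.09 and 5.39. For each of these genes every SB+Dox array lay more than 3 log2 units below every Dox array.

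Htr2b, the serotonin receptor of the heart and smooth muscle, fell 11.4-fold, from 8.17, 8.85 and 8.38 to 4.44, 5.09 and 5.33. Dsg3, a desmosomal cadherin, read 7.07, 7.51 and 7.60 in Dox and 3.89, 4.09 and 4.49 in SB+Dox. C1qtnf3, a secreted protein of the C1q and TNF-related family, read 9.43, 10.09 and 10.00 against 6.07, 6.86 and 7.19. In all of these the lowest Dox array stayed above the highest SB+Dox array, which the choice of robust calls required. Rrad, a small GTPase that restrains L-type calcium channels, read 7.82, 8.74 and 7.45 in Dox and 5.24, 4.98 and 5.01 in SB+Dox, a 7.6-fold fall. Mb, the oxygen-binding myoglobin of muscle, fell 4.99-fold, from 8.99, 9.61 and 9.21 to 6.57, 7.06 and 7.22. The other members of the 15 lowest robust calls were Thbs1, Frmpd1, Postn, Adamtsl2, Ltbp2, Tnc and the ubiquitin ligase gene Marchf11, with log2 changes between -3.45 and -2.19.

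The genes that rose furthest were of mixed function. Dcn, the small proteoglycan decorin that binds collagen and TGF-beta, read 4.63, 4.93 and 4.97 in Dox and 7.81, 7.65 and 8.55 in SB+Dox, an 8.91-fold rise (log2 change 3.15, SE 0.34, adjusted p = 2.79e-05). Its control arrays ran from 6.80 to 8.44 and its SB arrays from 8.69 to 9.59, so the Dox arrays held the lowest values of the study. Gfra1, the co-receptor for glial-derived neurotrophic factor, rose 6.23-fold, from 5.84, 5.89 and 5.36 to 8.25, 8.49 and 8.27. Sema3c, a secreted guidance cue, rose 5.72-fold, from 5.62, 5.32 and 6.17 to 8.28, 8.06 and 8.32.

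Tmod1, which caps the pointed ends of sarcomeric thin filaments, rose 5.59-fold on its brighter cluster, from 7.60, 8.05 and 7.47 to 10.10, 10.20 and 10.27. Its second cluster moved by only 0.08 (adjusted p = 0.784), so the clusters disagree. Prkar2b, a regulatory subunit of protein kinase A, rose 5.27-fold, from 6.42, 6.02 and 5.58 to 8.47, 8.49 and 8.25. Cd34, a surface sialomucin of quiescent satellite cells, read 4.74, 4.69 and 4.80 in Dox and 6.89, 6.68 and 6.70 in SB+Dox. In these 3 genes all SB+Dox arrays lay above all Dox arrays, which their choice as robust calls required. The rest of the 15 highest robust calls were Map2k6, Them6, Fam171b, Arhgap18, Bend6, Ccdc8, the galactosyltransferase gene B3galt2, the glutathione transferase gene Gsta4 and the adaptor gene Blnk, with log2 changes between 1.98 and 2.76.

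**Figure D2:**
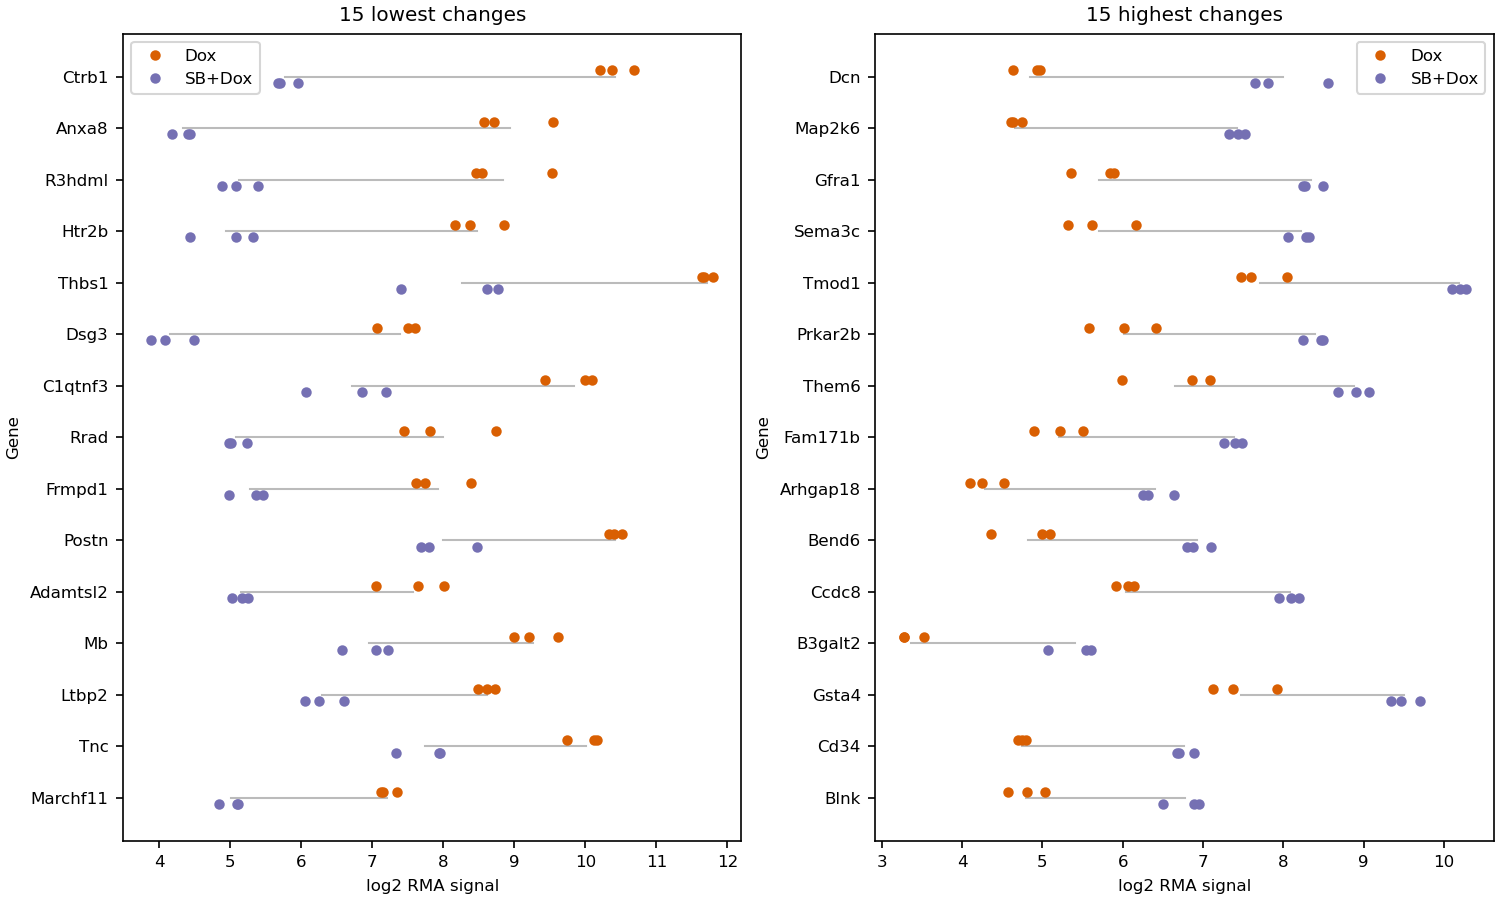
Log2 RMA signal (horizontal axes) on the 3 Dox and 3 SB+Dox arrays for the 15 lowest and 15 highest robust changes, 1 gene per line, with a grey line joining the group means. No Dox array overlaps an SB+Dox array for any gene shown, because the choice of genes required it.

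Within the p38 pathway the upstream kinase rose while messenger RNA decay factors fell. Of 26 measured genes of the pathway 3 were lower (11.5%) and 8 higher (30.8%), with a median of 0.09. Map2k6, the kinase that activates p38, read 4.63, 4.61 and 4.75 in Dox and 7.52, 7.44 and 7.32 in SB+Dox. The groups lay over 2 log2 units apart, and the rise was 6.78-fold (log2 change 2.76, SE 0.12, adjusted p = 1.46e-08). Map3k4, a kinase further upstream, rose from 6.71 ± 0.16 to 7.85 ± 0.06 (SD, n = 3), and Mknk2, a kinase activated by p38 and ERK that phosphorylates the cap-binding factor eIF4E, from 7.97 ± 0.08 to 9.36 ± 0.03. Zfp36l1, which binds AU-rich elements and promotes decay, fell 2.98-fold, from 8.34 ± 0.12 to 6.76 ± 0.10. The remaining calls were Zfp36 and Hspb1 (lower) and Mapk14, Mknk1, Dusp8, Dusp10 and Dusp16 (higher).

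Feedback inhibitors of MAP kinase signalling had more rises than falls. Of 17 dual-specificity phosphatase, Sprouty and Spred genes 8 rose (47.1%), 1 fell (5.88%) and 8 were not called, and the list median was 0.44. Spry4, an inhibitor of receptor tyrosine kinase signalling to ERK, read 5.35, 5.36 and 5.18 in Dox and 5.98, 6.65 and 6.50 in SB+Dox. Dusp6, which inactivates ERK, read 6.23, 6.35 and 6.02 against 6.81, 7.28 and 7.54. Neither gene's groups overlapped, and the folds were 2.12 and 2.02 (adjusted p = 2.18e-04 and 6.93e-04). Dusp8, which acts on JNK and p38, rose 1.57-fold, and Dusp7, a phosphatase of ERK, was the exception with a 3.35-fold fall, from 9.26 ± 0.33 to 7.52 ± 0.16. Without doxycycline the same list had 1 lower and 1 higher call and a median of 0.04. For none of its 17 genes did the SB203580 changes with and without doxycycline differ at the threshold.

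The factors of the myogenic program moved in both directions. Of 17 myogenic factors and partners 3 fell and 3 rose (17.6% each way), with a median of -0.00. Beside Myog, Myod1 fell 2.21-fold, from 10.38, 10.56 and 10.23 in Dox to 9.18, 9.40 and 9.15 in SB+Dox (adjusted p = 1.38e-04). Tead4, a TEA-domain factor that binds muscle enhancers, fell 2.4-fold. Myf5, the early determination factor, rose 2.68-fold, from 5.87, 5.45 and 5.74 to 7.36, 6.85 and 7.11, and Eya1, a transcriptional coactivator with phosphatase activity, rose 2.48-fold. All of these groups were separate, and the third gene that rose was Tcf4. Among 16 Id and repressive helix-loop-helix or SNAI factors 5 fell (31.2%) and 2 rose (12.5%). Bhlhe40, a clock-linked repressor, fell 3.37-fold, Hes1, a Notch effector, 1.86-fold and Snai1 1.84-fold, whereas Snai2 rose 1.91-fold. The other calls were Heyl and Id2 (lower) and Twist2 (higher).

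Contractile genes were for the most part not called. None of 9 myosin heavy chain genes passed the test in either direction. Embryonic Myh3 read 9.59, 10.70 and 9.72 in Dox and 10.50, 10.80 and 10.81 in SB+Dox, which overlapped (log2 change 0.71, adjusted p = 0.119), and without Dox replicate 2 its adjusted p became 0.00803. Of 28 thin-filament and light-chain genes 4 were lower (14.3%) and 1 higher (3.57%), with a median of -0.04. Acta1, the skeletal alpha-actin, had means of 12.42 in Dox and 12.39 in SB+Dox. Myl4, the embryonic and atrial light chain, fell 3.15-fold, from 10.74, 11.21 and 11.26 to 9.16, 9.38 and 9.71, and Lmod3, a leiomodin that nucleates actin, fell 1.7-fold. Lmod2 and Tnnt1 were the other falls, and Tmod1 was the rise. The lower count dropped to 2 without Dox replicate 2 or without SB+Dox replicate 1, and the higher count became 2 without Dox replicate 2.

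Of 37 Z-disc, M-band and titin-associated genes 8 fell (21.6%) and 1 rose, with a median of -0.21; the rise was Trim55, a ubiquitin ligase gene of the M-band, whose call was lost without Dox replicate 1 or 3 or SB+Dox replicate 2 or 3, and the lower count was 5 without Dox replicate 2, Dox replicate 3 or SB+Dox replicate 1. Mybph, a myosin-binding protein, fell 2.33-fold, from 11.02, 11.46 and 11.38 to 9.94, 10.18 and 10.09. Csrp3, a LIM protein that senses stretch, fell 2.24-fold, the obscurin-like gene Obsl1 2.12-fold and the actin-binding gene Synpo2l 1.52-fold. Of 26 genes of calcium release and reuptake 5 fell (19.2%) and 2 rose (7.69%, near the share over all genes). Without Dox replicate 2 or SB+Dox replicate 1, 3 fell. Cacna1s, the voltage sensor of excitation-contraction coupling, read 7.33, 8.02 and 8.15 in Dox and 5.93, 6.14 and 6.87 in SB+Dox, a 2.87-fold fall without overlap. Pvalb, a calcium buffer, fell 1.96-fold, while Asph and Stim1, a sensor of store depletion, rose 2.04-fold and 1.69-fold. Cacnb1, Jph2 and Cacng1 also fell, and 4 genes rose without SB replicate 3. At the neuromuscular junction Lrp4, the agrin receptor, and Ncam1 fell 1.91-fold and 1.81-fold (11.8% lower), and Etv5 rose 2.0-fold (5.88% higher). The other 14 of 17 genes were not called. In the dystrophin complex Sgca fell 2.16-fold (7.69% lower) and Sntb2 rose 2.25-fold among 13 genes. Sspn was the other call, higher (15.4% higher with Sntb2).

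Fusion genes fell in part. Of 37 genes of fusion and adhesion 8 fell (21.6%) and 4 rose (10.8%), with a median of -0.11. Mymx, the micropeptide that opens the fusion pore, read 7.63, 8.05 and 7.99 in Dox and 5.82, 6.05 and 5.96 in SB+Dox, a 3.85-fold fall (adjusted p = 1.17e-07). Adam12, a metalloprotease of fusing myoblasts, fell 2.24-fold and Cav3, the caveolin of the muscle membrane, 1.4-fold, and Dock1, a Rac activator needed for fusion, rose 2.68-fold, from 6.15, 6.11 and 5.79 to 7.41, 7.49 and 7.42. In each of these 4 genes the groups did not overlap, which their choice as robust calls required. Boc, Jam3 and Kirrel3 were the other rises. The lower count was 4 without SB+Dox replicate 1 and 5 without any of the Dox arrays or SB+Dox replicate 2, and the higher count was 1 or 2 without Dox replicate 3, SB+Dox replicate 2 or SB+Dox replicate 3.

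The E-box CAGCTG is a sequence that Myod1 and Myog bind, and promoters of 3 muscle genes that fell and hold it close to the start were picked for display. No share is given for the muscle genes that fell. The 150 bases before the start are shown for them on build GRCm38.p6, from RefSeq, 5′ to 3′ on the gene's strand, with the E-box in capitals. They lie at chr1:134193298-134193447 for Mybph, chr1:136052661-136052810 for Cacna1s and chr6:112459355-112459504 for Cav3, each on the + strand.
Mybph: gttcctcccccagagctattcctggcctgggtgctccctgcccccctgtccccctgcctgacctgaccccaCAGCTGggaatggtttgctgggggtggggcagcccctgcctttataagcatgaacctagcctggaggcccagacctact
Cacna1s: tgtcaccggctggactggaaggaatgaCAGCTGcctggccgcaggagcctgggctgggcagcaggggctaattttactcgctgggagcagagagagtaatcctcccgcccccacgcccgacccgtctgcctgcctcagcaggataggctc
Cav3: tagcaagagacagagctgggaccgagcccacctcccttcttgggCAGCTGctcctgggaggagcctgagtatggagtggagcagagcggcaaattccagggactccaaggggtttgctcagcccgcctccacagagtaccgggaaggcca
The E-box begins 79, 123 and 106 bases before the start in Mybph, Cacna1s and Cav3. Within such 150 bases CAGCTG stood in 12.1% of 132 promoters of genes called at least 2-fold lower. It stood there in 11.1% of 180 promoters of genes called at least 2-fold higher and in 8.10% of 19116 promoters of measured genes. Cav3, with a 1.4-fold fall, is outside the 2-fold set. In the table's windows of 300 bases (250 before the start and 50 after it), CAGCTG was present on either strand in 24.2% of 132 promoters of genes called at least 2-fold lower, in 19.4% of 180 promoters of genes called at least 2-fold higher, and in 16.3% of 19116 promoters of measured genes. Any E-box, CANNTG, which includes CAGCTG, was present in 71.2%, 66.1% and 68.3%, and the AP-1 site TGANTCA in 9.09%, 7.78% and 6.88%. The MEF2 site stood in 1 of 132, 9 of 180 and 482 of 19116 promoters. The CArG box was found in 0.758%, 1.11% and 1.41%, the CRE TGACGTCA in 0.758%, 4.44% and 2.37%, and the composite CHOP and ATF4 site TGATGNAA in 0.00%, 2.22% and 3.08%. These shares describe letters in a window, and binding was not measured.

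Matricellular proteins, which modulate how cells meet the matrix, gave some of the largest falls. Of 29 matricellular and proteoglycan genes 8 fell (27.6%) and 2 rose (6.90%), all of them robust, with a median of -0.16. Thbs1, thrombospondin 1, read 11.64, 11.80 and 11.67 in Dox and 7.40, 8.77 and 8.61 in SB+Dox, a 10.9-fold fall (log2 change -3.45, SE 0.28, adjusted p = 2e-06). Postn, periostin, fell 5.39-fold, from 10.41, 10.33 and 10.52 to 7.80, 7.69 and 8.48, and Tnc, tenascin C, 4.82-fold, from 9.74, 10.17 and 10.12 to 7.33, 7.94 and 7.95. The Dox arrays of all 3 genes were tightly grouped and lay above every SB+Dox array. The genes that rose were Dcn and Ogn, osteoglycin, the second by 2.12-fold.

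Of 24 interstitial collagen and lysyl oxidase genes 4 fell (16.7%) and 3 rose (12.5%), and 1 rose without Dox replicate 1. Lox, which cross-links collagen, fell 3.35-fold, from 8.62, 8.43 and 8.62 to 6.83, 6.55 and 7.07. Col11a1 and Col5a2 fell 2.02-fold and 1.77-fold, and Pcolce, an enhancer of procollagen processing, rose 1.55-fold. Col5a1 was the other fall, and Col3a1 and P4ha3 the other rises. In the basement membrane Lamb3 and Col18a1 fell 3.12-fold and 2.95-fold (10.0% lower), and the other 18 of 20 genes were not called. Of 23 proteases and inhibitors 5 fell (21.7%) and 3 rose (13.0%). Timp1, an inhibitor of metalloproteinases, fell 2.7-fold and Adamts4, an aggrecanase, 2.75-fold, whereas Plat, tissue plasminogen activator, rose 2.59-fold and Plau, urokinase, 1.76-fold. Mmp14, Adam12 and Adamts12 were the other falls and Plaur, the urokinase receptor gene, the other rise.

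Of 33 TGF-beta and BMP pathway genes 7 fell (21.2%) and 1 rose (3.03%), with a median of -0.09. Ltbp2, a latent TGF-beta binding protein of elastic fibres, fell 4.94-fold, from 8.61, 8.49 and 8.73 in Dox to 6.25, 6.05 and 6.61 in SB+Dox. Fst, follistatin, which sequesters activin and myostatin, fell 3.15-fold, and Skil, a SMAD corepressor that TGF-beta induces, 2.33-fold. Gdf11, a ligand of the activin class, rose 2.16-fold, with Dox arrays at 6.77, 6.79 and 5.67 and SB+Dox arrays at 7.49, 7.63 and 7.44. The last gene's Dox replicate 3 stood about 1 log2 unit below its fellows, and the groups were separate. The higher count was 2 without Dox replicate 1, Dox replicate 2, SB replicate 1 or SB replicate 3.

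Response factors and short-lived transcripts were divided. Of 26 AP-1, EGR and KLF genes 7 fell (26.9%) and 4 rose (15.4%), with a median of -0.08. Klf10, Klf4 and Junb fell 2.78-fold, 2.39-fold and 2.24-fold, and Junb read 7.17, 7.40 and 6.99 in Dox and 5.84, 6.13 and 6.11 in SB+Dox. Fosl1, a partner of JUN proteins, rose 1.66-fold, and Atf3, Maff and Jund were the other rises. The lower count was 4 without Dox replicate 3, and the higher count was 2 without SB+Dox replicate 3. Among 25 short-lived inflammatory transcripts, many of them stabilised through p38 in other cells, Ptgs2 and Csf1 fell 2.51-fold and 1.63-fold, and Plau, Cxcl12 and Plaur rose. The lower count was 4 without Dox replicate 1.

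Cell-cycle genes rose as a group. Of 33 genes of G2 and mitosis 29 were higher (87.9%) and none was lower, with a median log2 change of 0.86, and 24 of the rises were robust. In SB against control 28 of the 33 were higher and the median was 0.66. Bub1, a kinase of the spindle checkpoint, read 3.86, 4.25 and 4.16 in Dox and 5.28, 6.02 and 5.17 in SB+Dox, a 2.64-fold rise (adjusted p = 5.71e-04). Top2a, which untangles replicated chromosomes, rose 2.5-fold, from 5.53, 5.47 and 5.32 to 6.69, 7.02 and 6.57. Ccna2, cyclin A2, rose 2.46-fold, from 6.04, 6.20 and 5.92 to 7.35, 7.72 and 6.98, and Anln, a scaffold of the cleavage furrow, 2.28-fold. The groups were apart for all 4 genes, which were picked from robust calls. The mean over the list was 5.12 to 5.30 in the Dox arrays, 5.80 to 6.27 in SB+Dox, 5.95 to 6.36 in control and 6.67 to 6.89 in SB. The Dox arrays held the lowest values, and the SB+Dox arrays lay in a range like that of control. Bulk RNA cannot tell more cycling cells from more transcript per cell.

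Genes of DNA replication rose less uniformly. Of 35 genes 18 were higher (51.4%) and 1 lower, with a median of 0.46, and without doxycycline 11 were higher, with a median of 0.38. Uhrf1, which maintains DNA methylation at the fork, rose 1.91-fold, from 5.60, 5.73 and 5.39 to 6.54, 6.83 and 6.15. Mcm3, of the replicative helicase, and Pole, a leading-strand polymerase, rose 1.8-fold and 1.78-fold. The exception was Rrm2, the small subunit of ribonucleotide reductase, which fell 2.93-fold, from 8.66, 8.64 and 8.26 to 6.95, 7.22 and 6.73, and which stood at 7.71 in control and 7.76 in SB. Ccnd1, cyclin D1, which drives the passage from G1, read 6.51, 6.44 and 6.37 in Dox and 7.58, 7.98 and 8.09 in SB+Dox, a 2.72-fold rise to a level like that of control (7.78 ± 0.29) and SB (7.86 ± 0.17; SD, n = 3). In a list of 17 genes around cell cycle exit 4 rose (23.5%) and 1 fell (5.88%). The list also holds the cyclin genes Ccnd1 and Ccnd2, which are among the 4, so its share is not one of exit genes alone. Cdkn2d, a CDK inhibitor, and Rbl1, a pocket protein, rose 1.53-fold and 1.49-fold beside Ccnd1 and Ccnd2, and Gadd45b, a stress-induced growth arrest gene, fell 2.77-fold.

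CCAAT and TTTGAA, the latter known as the cell cycle homology region, are promoter elements of many G2 and mitosis genes, and the promoters of Bub1 and Top2a are shown because their genes rose together. Top2a holds both elements and Bub1 CCAAT in the bases shown. The 150 bases before the start are from RefSeq on GRCm38.p6, 5′ to 3′ on the gene's strand, with every CCAAT (or ATTGG, its reverse) and TTTGAA (or TTCAAA) in capitals. They lie at chr2:127831860-127832009 for Bub1 and chr11:99024190-99024339 for Top2a, both on the - strand.
Bub1: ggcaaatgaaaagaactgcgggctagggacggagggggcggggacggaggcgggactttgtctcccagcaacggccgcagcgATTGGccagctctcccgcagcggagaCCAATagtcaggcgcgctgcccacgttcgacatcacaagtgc
Top2a: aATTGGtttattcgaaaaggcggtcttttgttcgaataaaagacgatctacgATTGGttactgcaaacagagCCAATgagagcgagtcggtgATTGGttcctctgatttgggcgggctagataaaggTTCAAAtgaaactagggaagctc
Within these 150 bases CCAAT stood on either strand in 80.0% of the 25 promoters of the 29 genes that rose, 23 of which have an entry, and in 25.6% of 19116 promoters of measured genes. TTTGAA stood there in 32.0% and 7.11%. Over the window of 300 bases CCAAT was present in 80.0% of the same 25 promoters against 37.4% of all, and TTTGAA in 76.0% against 14.8%. Over all 33 measured genes of the list, called or not, the shares were 79.3% and 75.9% of 29 promoters, a set that includes the same 25. Whether the elements go with the change was not tested. Among promoters of genes called at least 2-fold higher, CCAAT was found in 43.9% of windows of 300 bases, beside 37.9% for those at least 2-fold lower and 37.4% for all.

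Many genes of lipid synthesis rose. Of 30 sterol and fatty acid genes 16 were higher (53.3%) and none lower, with a median of 0.50, and 10 of the rises were robust. In SB against control 13 were higher, with a median of 0.47. Ebp, a sterol isomerase gene that the list leaves out, fell 2.75-fold in SB+Dox against Dox (limma adjusted p = 1.64e-05). Dhcr7, the last enzyme of cholesterol synthesis, rose 3.66-fold, from 7.54, 7.47 and 7.18 in Dox to 9.20, 9.37 and 9.23 in SB+Dox (adjusted p = 2.12e-07). Elovl6, a fatty acid elongase, rose 2.87-fold, from 6.28, 6.36 and 5.93 to 7.54, 8.05 and 7.54, and Fasn, fatty acid synthase, 2.55-fold, from 8.37, 8.41 and 7.78 to 9.50, 9.77 and 9.34. Lss, which closes the sterol rings, rose 2.11-fold. The groups did not overlap in these 4 genes, which were picked from robust calls. The count was 10 without Dox replicate 3 or without SB+Dox replicate 2.

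Of 19 glycolytic genes 8 rose (42.1%) and none fell, with a median of 0.17. The phosphofructokinase genes Pfkl and Pfkp rose 1.6-fold and 1.55-fold, Pfkfb3, which makes their activator, 1.62-fold and muscle Pgam2 2.29-fold. Of 32 muscle energy genes 9 rose (28.1%), 4 of them robustly, and 2 fell (6.25%), with a median of -0.00, and 5 rose without Dox replicate 3, while 1 fell without Dox replicate 2, Dox replicate 3 or SB+Dox replicate 1. Pygm, muscle glycogen phosphorylase, read 6.61, 7.05 and 6.76 in Dox and 8.52, 8.47 and 9.10 in SB+Dox, a 3.71-fold rise. Ppargc1a, a coactivator of mitochondrial genes, rose 2.33-fold, from 4.79, 4.85 and 4.31 to 6.01, 5.79 and 5.81. Mb, above, and Gys1, glycogen synthase, moved the other way. Of 28 nuclear respiratory chain genes 4 rose (14.3%), Cyc1 by 1.48-fold and Sdha by 1.38-fold with Ndufb5 and Sdhb, and the count ran from 2 without Dox replicate 3 or SB+Dox replicate 1 to 8 without control replicate 3.

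In the insulin-like growth factor axis 5 of 19 genes rose (26.3%) and 2 fell (10.5%), and the rises included the insulin receptor gene Insr (1.81-fold), the substrates Irs1 (1.86-fold) and Irs2 (1.56-fold) and the binding protein gene Igfbp6 (1.79-fold), together with Pik3r1, while Foxo1 and Igfbp7 fell. Irs1 read 7.34, 7.11 and 7.13 in Dox and 7.92, 8.31 and 8.04 in SB+Dox on its brighter cluster, while its dimmer cluster was not called (log2 change 0.42, adjusted p = 0.14). Of 33 axon guidance and neurotrophic genes 10 rose (30.3%) and 2 fell (6.06%), and 6 rose without Dox replicate 3, while 1 fell without Dox replicate 1 or SB+Dox replicate 2. Beside Gfra1 and Sema3c, the ephrin receptor gene Epha7 rose 1.72-fold and the Slit receptor gene Robo2 fell 1.79-fold, with Sema3a as the other fall. In the Wnt pathway Fzd2 and Wnt9a fell 3.07-fold and 2.23-fold and Fzd4 and Rspo3 rose 1.95-fold and 1.54-fold, and Fzd1 was the remaining call of 29 genes, lower, with 3 lower (10.3%) and 2 higher calls (6.90%, near the share over all genes) in all and 5 lower without Dox replicate 1. Of 22 Notch genes 3 fell (13.6%), namely Hes1, Heyl (1.76-fold) and Numbl (1.41-fold), and Rfng and Lfng rose (9.09%), neither robustly, of which none to 1 was called when any of the 6 arrays was left out.

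**Figure D3:**
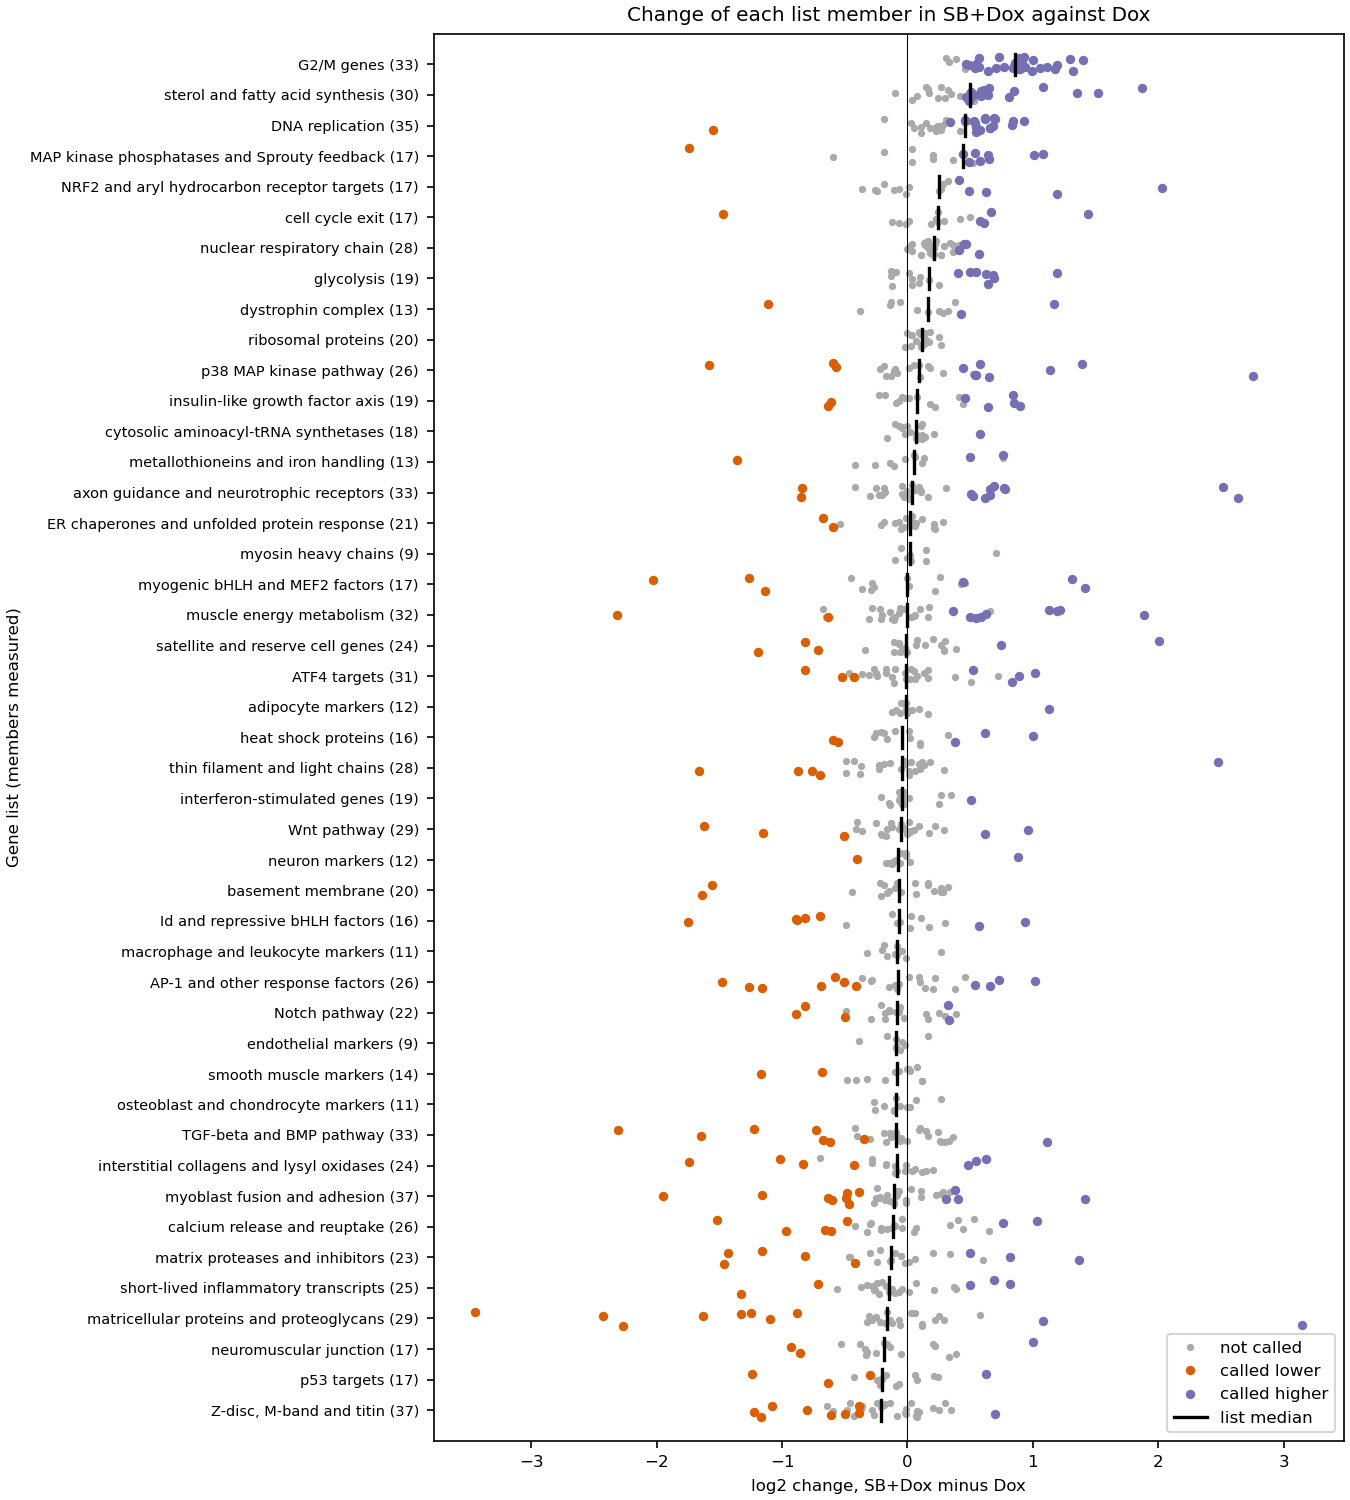
Log2 change in SB+Dox against Dox (horizontal axis) of every measured member of 45 gene lists, ordered by list median (black bar), with members called lower or higher coloured. The list of G2 and mitosis genes has the highest median, 0.86, and that of Z-disc, M-band and titin genes the lowest, -0.21; a gene can stand in more than 1 list.

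Of 17 NRF2 and aryl hydrocarbon receptor targets 5 rose (29.4%), Gsta4 by 4.08-fold, Gstm1 by 2.28-fold and Osgin1 by 1.55-fold, with Srxn1 and Tiparp, and the count was 3 without Dox replicate 2, SB+Dox replicate 1 or SB+Dox replicate 2. Among 16 heat shock genes Hspb8 and Hspd1 rose 2.0-fold and 1.53-fold beside Hsp90aa1 (18.8% higher), and Hspb1 and Hspb7 fell (12.5%), and the falls became 0 without Dox replicate 2 or SB+Dox replicate 1. Of 21 genes of the unfolded protein response Dnajc3 fell 1.59-fold and Herpud1 was the other fall (9.52% lower), and the count became 1 without SB+Dox replicate 2. Of 17 p53 targets 3 fell (17.6%), Fas by 2.37-fold and Eda2r by 1.54-fold with Perp, and Sesn1 rose (5.88%). Mt1, a metallothionein, rose 1.41-fold among 13 genes of metal handling, Mt2 also rose (15.4% higher) and Slc40a1, the iron exporter, fell (7.69% lower). Of 24 satellite and reserve cell genes 3 fell (12.5%) and 2 rose (8.33%, near the share over all genes). Megf10, an engulfment receptor of satellite cells, fell 2.29-fold with Heyl and Cxcr4, and Sdc3 rose beside Cd34.

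Markers of other cell types were mostly not called, with smooth muscle as the list with the largest share called lower. None of the osteoblast and chondrocyte, macrophage and leukocyte, or endothelial markers passed the test, and the changes furthest from 0 in each list were 0.27 for Sox9, -0.32 for Cd14 and -0.39 for Cdh5 (adjusted p = 0.197, 0.116 and 0.0937). Lpl, lipoprotein lipase, was the 1 adipocyte marker of 12 that rose (8.33%, near the share over all genes), by 2.18-fold. Of 14 smooth muscle markers Actg2 and Cnn2 fell 2.25-fold and 1.61-fold (14.3%, above the 3.55% over all genes). The mean of the list was 7.54 to 7.66 in Dox and 7.35 to 7.48 in SB+Dox. Nefm, a neurofilament gene, rose 1.85-fold among 12 neuron markers, of which Elavl3 fell (8.33% each way). Ifit2 was the 1 of 19 interferon-stimulated genes that rose (1.43-fold), its groups overlapped, and the call was lost when any one of 9 arrays was left out. None of 20 ribosomal protein genes was called, and Rpl22 came nearest with 0.27 (adjusted p = 0.0919).

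Targets of ATF4, the factor of the amino acid response, and the tRNA synthetases had fewer calls in SB+Dox against Dox than in SB against control. Of 31 ATF4 targets 3 fell (9.68%) and 4 rose (12.9%) in SB+Dox against Dox, with a median of -0.01. Both shares were above the 3.55% and 7.19% over all genes. In SB against control 21 fell and none rose, with a median of -0.83. Nupr1 fell 1.77-fold with doxycycline, and Psat1, of serine synthesis, and Stc2 rose 1.78-fold and 1.43-fold. Slc7a1 and Ddit4 were the other falls and Atf3 and Ddit3 the other rises, and without single arrays the falls dropped to 1 (SB+Dox replicate 1 or 2) and the rises to 2 (Dox replicate 2 or SB+Dox replicate 3). The mean of the list was 8.05 to 8.52 in Dox, 8.15 to 8.51 in SB+Dox, 7.96 to 8.38 in control and 7.16 to 7.45 in SB. The SB arrays alone were low, and the Dox and SB+Dox ranges overlapped. Of 18 cytosolic aminoacyl-tRNA synthetases 1 rose in SB+Dox (5.56%), namely Wars (1.49-fold, adjusted p = 0.0383). In SB against control 11 fell, with a median of -0.52 beside 0.07 with doxycycline. The Wars call was lost without any of 6 arrays in turn, among them Dox replicates 1 and 2 and all SB+Dox arrays.

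The difference of the SB203580 changes was itself tested for these genes. It was called for 8 of the 31 ATF4 targets and 3 of the 18 synthetases, beside 0.895% of all clusters. Chac1, which degrades glutathione, was chosen for mention after its values were seen, as were the next 3 genes. It changed by 0.16 with doxycycline and -1.14 without it, a difference of 1.30 (SE 0.18, adjusted p = 0.00695), and this call held without each of the 12 arrays. For Asns, asparagine synthetase, the difference was 1.03 (adjusted p = 0.0364), for Slc7a5, a carrier of large neutral amino acids, 0.99 (adjusted p = 0.0387) and for Slc3a2, its heavy chain, 0.82 (adjusted p = 0.015). The calls of Asns and Slc7a5 held in 3 of the 12 leave-one-out fits and that of Slc3a2 in 10. With every cluster of the table tested none of the 4 calls held (adjusted p = 0.0777 for Chac1, 0.154 for Asns and Slc7a5 and 0.0923 for Slc3a2), and after quantile normalization those of Asns and Slc7a5 did not (0.0915 and 0.0629).

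**Figure D4:**
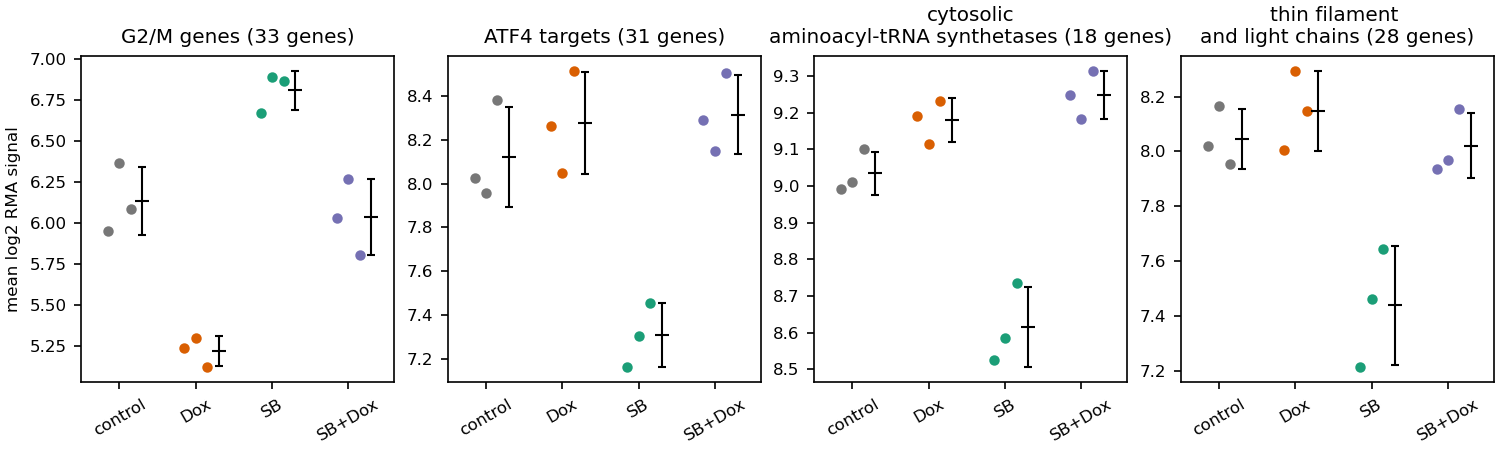
Mean log2 RMA signal over the measured members of 4 gene lists (vertical axes, not starting at 0) on each array, by group. Points are arrays and black marks the mean ± SD of 3 arrays. For G2 and mitosis genes every SB+Dox array lies above every Dox array, and for ATF4 targets and tRNA synthetases the SB arrays lie below all others.

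The SB203580 change with doxycycline was set beside that without it. In SB against control 1390 clusters (6.38%) were called, 843 lower and 547 higher. With 1 cluster per gene 4.06% of genes were lower and 2.59% higher, and these are the shares beside the list counts given above for that comparison. The clusters lower in both comparisons numbered 357, which is 47.8% of those lower with doxycycline and 42.3% of those lower without it. Those higher in both numbered 415, which is 27.3% and 75.9%. Clusters called in opposite directions were 0 and 4. Across the 21789 clusters the changes correlated at r = 0.56 (Spearman coefficient 0.33), a description across clusters of 1 platform, which are not independent. Of 142 clusters at least 2-fold lower with doxycycline 139 had the same sign without it, with medians of -1.33 and -0.96, and of 183 at least 2-fold higher 169 did, with medians of 1.19 and 0.60.

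The genes with the largest change common to both comparisons included several already named. Ctrb1, C1qtnf3, Thbs1, Tnc and Myog fell in both, and Thbs1 had log2 changes of -3.45 with doxycycline and -3.94 without it. Map2k6, Dcn, Gfra1, Elovl6 and Inpp5j, an inositol phosphatase gene, rose in both. Map2k6 changed by 2.76 and 2.29, and Inpp5j by 1.85 and 1.46, with Inpp5j arrays at 5.54, 5.96 and 5.42 in Dox and 7.47, 7.65 and 7.34 in SB+Dox. The difference between the changes was called for Ctrb1 among these 10 genes (-2.52, adjusted p = 0.00253). It was -1.17 for C1qtnf3, 1.59 for Dcn and 0.77 for Gfra1 (adjusted p = 0.236, 0.175 and 0.123), and between 0.04 and 0.49 for Myog, Thbs1, Tnc, Map2k6, Elovl6 and Inpp5j (adjusted p of 0.278 to 0.964).

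A difference between the changes was called for 195 clusters (0.895%). Of these 155 were also called in SB+Dox against Dox, 31 as falls that were larger with doxycycline, 120 as rises that were larger with it and 4 as falls that were smaller with it. This count depended strongly on the arrays and settings. With 1 array left out it ran from 27 without SB replicate 2 to 352 without SB replicate 3. Among the other settings it ran from 6 with every cluster of the table tested to 678 with array weights. Of 187 genes called for the difference 24 were called without each of the 12 arrays. Rrm2 was among them, with a fall of 1.55 on the log2 scale with doxycycline beside a change of 0.05 without it, as was Pygm, with 1.89 beside 0.33. Myl4 went the other way, with -1.66 with doxycycline and -3.14 without it (difference 1.48, adjusted p = 0.024), and held in 8 of the 12 fits. Ccnd1 changed by 1.44 with and 0.08 without doxycycline (difference 1.36, adjusted p = 0.0135) and held in 11. None of these 4 calls held with every cluster of the table tested (adjusted p = 0.088 for Rrm2, 0.098 for Pygm, 0.134 for Myl4 and 0.1 for Ccnd1).

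**Figure D5:**
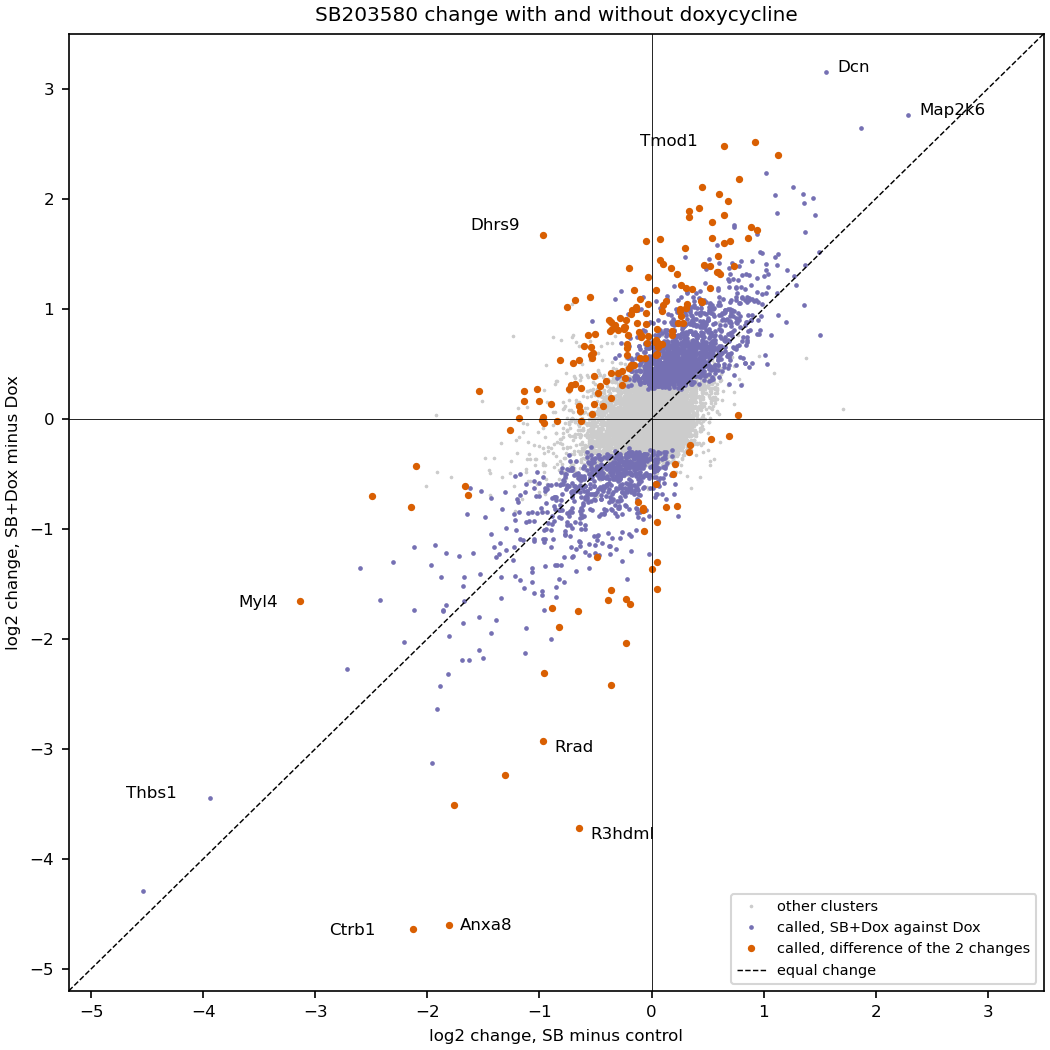
Log2 change in SB+Dox against Dox (vertical axis) and in SB against control (horizontal axis) for 21789 clusters, with those called in the first comparison and those called for the difference coloured. The dashed line marks equal change. Thbs1 and Map2k6 lie close to it, while Ctrb1, Anxa8, R3hdml and Rrad fell further with doxycycline, and Tmod1 rose further.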

How the data were processed

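RNA of C2i-Myog cells was measured on 12 Affymetrix arrays in 4 groups of 3. The authors deposited 1 table of log2 values, summarised with RMA in Affymetrix Expression Console per the submitters' processing notes; versions and annotation are not given in the sources used here. Values ran from 0.50 to 13.17 with 0 missing. Left out were 1621 clusters that carry several symbols and 12147 that carry none. Symbols came from the platform annotation and were updated by Entrez identifier for 21698 clusters. Arrays have no read depth, and their number limits the precision.

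All 12 arrays entered a limma fit with a mean for each group, run with limma 3.58.1 in R 4.3.3 (eBayes, no trend, 8 residual and 6.56 prior degrees of freedom). P-values were adjusted by the Benjamini-Hochberg method over 21789 clusters, with 0.05 as the threshold for a call. The difference contrast was (SB+Dox minus Dox) minus (SB minus control). A robust call held with each of the 12 arrays left out and had groups that did not overlap. For genes with several clusters the brightest was used.

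Named were the myogenic and p38 regulators, the 15 lowest and 15 highest robust changes, up to 4 robust members per list (or the largest change), the 6 most negative and 6 most positive differences, and 5 genes each way changed in both comparisons. Predicted genes, small RNAs and olfactory or vomeronasal receptors were not named by this rule. Members given only to complete a count of 5 or fewer were named after their values were seen. Members and lists (45 lists, 985 of 1046 memberships measured) were chosen with earlier results of these data known. Alternatives covered normalization, filters on dim clusters, variance options, cluster choice, the replicate block and leaving out arrays. Tested on simulated data for SB+Dox against Dox with 21789 clusters, 50 of them changed at each fold, 74% of 1.5-fold and 92% of 2-fold changes were recovered. False calls numbered 4. The data gave 2265 calls, so the simulation had far fewer changes and its shares need not hold for them.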

Additional observations from a re-analysis of the deposited data

Results flagged for a closer look

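For 12 genes that were robustly called in SB+Dox against Dox, the SB203580 change with doxycycline differed from that without it by limma's test of the difference (Benjamini-Hochberg adjustment). The differences are on the log2 scale. The fall was larger with doxycycline for R3hdml (difference -3.07, adjusted p = 0.00381), Anxa8 (-2.79, 0.015), Ctrb1 (-2.52, 0.00253), Adamtsl2 (-2.06, 0.00673), Rrad (-1.95, 0.0191) and Dsg3 (-1.92, 0.0109). Each of these 6 genes had a higher mean in Dox than in control, as with R3hdml at 8.84 against 5.63, and nearby means in SB and SB+Dox, the furthest apart being 3.76 and 4.16 for Dsg3. The files hold no detection calls, and low signals, such as 4.34 for Anxa8 in SB+Dox, were not shown to be above background.

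The change was more positive with doxycycline for Bend6 (difference 1.65, adjusted p = 0.0109), Tmem74 (1.66, 0.00852), Car2 (1.67, 0.025), Ogn (1.76, 0.0155), Tmod1 (1.83, 0.00253) and Dhrs9 (2.64, 0.0275). Car2, a carbonic anhydrase, read 4.42, 4.54 and 3.83 in Dox and 5.85, 6.09 and 5.71 in SB+Dox, beside means of 5.96 in control and 5.91 in SB. Dhrs9, a retinol dehydrogenase, read 6.06, 5.80 and 7.12 in Dox and 7.97, 7.54 and 8.47 in SB+Dox. Tmem74 rose 2.16-fold in SB+Dox and changed by -0.55 without doxycycline.

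With each array left out in turn, R3hdml, Ctrb1, Adamtsl2, Dsg3, Bend6, Tmem74 and Tmod1 kept an adjusted p under 0.05 in 12 of 12 fits, Anxa8 and Ogn in 10, Rrad in 9, Car2 in 7 and Dhrs9 in 5. When every cluster of the table was tested, only Tmod1 of the 12 kept it (adjusted p = 0.0494). The second cluster of Tmod1 had a difference of -0.26 (adjusted p = 0.59).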

How the results depend on the processing

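The count of clusters called in SB+Dox against Dox stayed within 1.5 times of 2265 under every alternative, from 1614 to 2511 with 1 array left out, 1882 with every cluster of the table and 3019 with array weights. With the replicate block it was 2628. The numbers were not taken as pairing, since the labels do not say what they stand for. Same-numbered Dox and SB+Dox arrays correlated at 0.09, 0.28 and 0.15 in their deviations from the group means. Differently numbered ones correlated at -0.17 to 0.02, so each array correlated best with its own number. Pairing was therefore not excluded. The clusters lower ran from 526 to 838 and those higher from 1047 to 1673 with 1 array left out. SB against control had 1390 calls, 2794 with array weights, 876 with every cluster and 779 to 1644 with 1 array left out, the lowest without SB replicate 2 and 910 without control replicate 1.

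The difference of the changes was the least stable result. Its 195 calls became 421 with the replicate block, 79 after quantile normalization, 301 without clusters under percentile 50, 678 with array weights and 6 with every cluster, and 27 to 352 with 1 array left out; the cause was not tested. Of 3506 values of 153 named genes under the alternatives, 3505 kept their direction and 3475 their side of the threshold. The exception in direction was Mapk11, at -0.01 after quantile normalization. Of 2070 list counts 182 moved by over 1.5 times. With 3 arrays per group, small changes can go uncalled.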

Other observations

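Gene groups in this section were put together after the values were seen. Over all genes 3.55% were lower and 7.19% higher. Of 20 measured genes of fatty acid oxidation and ketone use 7 rose in SB+Dox against Dox and none fell, all 7 robustly, with a median of 0.24. Oxct1, which lets cells use ketone bodies, had means of 6.69 in Dox and 8.61 in SB+Dox (log2 change 1.92, adjusted p = 9.84e-08), and Hadh, a dehydrogenase of the oxidation cycle, 7.54 and 9.28 (1.74). Cpt1a, the carnitine transferase at the outer membrane, rose by 0.98. Of 11 tubulin genes 5 rose, among them Tubb2b (8.24 to 9.89) and Tubb5 (8.89 to 10.28), and none fell. Of 11 desmosomal genes Dsg3, Jup and Pkp1 fell, by 3.24, 1.68 and 1.54 on the log2 scale, while Pkp2 rose by 0.87 and Dsp had a log2 change of 0.00. Of 7 platelet-derived growth factor and receptor genes Pdgfa, Pdgfb and Pdgfrb fell by 1.39, 1.07 and 0.72, and Pdgfd and Pdgfrl rose by 1.17 and 0.55.

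Ebp, a sterol isomerase gene outside the list of lipid synthesis, fell by 1.46 on the log2 scale, from a mean of 7.60 to 6.14, while 16 genes of that list rose. Porcn, which acylates Wnt proteins, fell by 2.17, from 8.89 to 6.72. The predicted gene Gm5662 fell by 4.29 with doxycycline and by 4.54 without it, which places it beside Ctrb1 among the largest falls although the naming rule leaves predicted genes out.

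Of 305 microRNA hairpin clusters 4 were called lower and none higher, beside 3.43% lower and 6.97% higher of all clusters tested. Hairpins were thus called less often than clusters at large. The calls of Mir27a and Mir1a-1 were robust, and those of Mir23a and Mir31 were not. These clusters are annotated by hairpin, and mature microRNAs were not measured. Mir27a read 6.42, 6.56 and 6.47 in Dox and 5.74, 5.95 and 5.87 in SB+Dox (log2 change -0.63, adjusted p = 0.00192), and Mir23a, its neighbour, fell by 0.59. Mir1a-1, of a muscle microRNA family, fell by 0.68 at a signal of 2.59 in Dox, which was not shown to be above background. Mir31 fell by 0.42. The 3′ arms of the neighbouring pair are shown with the seed, bases 2 to 8, in capitals, from RefSeq on GRCm38.p6 (chr8:84208563-84208583 and chr8:84208727-84208747, + strand).
mmu-miR-23a-3p: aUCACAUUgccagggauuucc
mmu-miR-27a-3p: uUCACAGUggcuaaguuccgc
The seeds of these arms are not the same.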
